A study of Mus musculus with 8 samples.

Results

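The genes that mark the epithelium of the bile ducts were followed in livers of newborn mice with and without Mfp2. 8 such genes were listed by symbol, namely Krt19, Krt7, Epcam, Cldn7, Cldn4, Sox9, Spp1 and Cftr, and every probe set annotated to exactly 1 of these symbols was taken. This gave 11 probe sets of 7 genes, out of 45037 probe sets on the array without its controls. The annotation used here lists no probe set under Spp1, the gene of osteopontin, so its expression was not analysed here. RNA of whole liver from 8 mice aged 2 days was measured on Affymetrix arrays, 4 livers of the genotype Mfp2 -/- (called KO) and 4 of wild type (WT). Each liver has 1 array. The labels give no strain, sex, litter or treatment, and do not say how the allele was made or whether it is lost in all cells.

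Bile ducts are lined by cholangiocytes, which in the embryo arise from the same bipotent precursors as hepatocytes, around the portal veins. Injury and bile retention in the adult liver are known to be followed by a ductular reaction, in which cells with duct markers increase in number. Mfp2, encoded by Hsd17b4, is the peroxisomal enzyme that takes part in shortening the side chain of bile acid precursors, and mice lacking it are known to have disturbed bile acids. The comparison asks whether duct markers were higher in KO livers.

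Each array carried the transcript that its label gives. Hsd17b4 had values of 4.29, 3.76, 3.25 and 4.05 in KO 1 to KO 4, against 8.18, 8.71, 8.97 and 8.15 in WT 1 to WT 4, on the log2 scale of the deposited table. Which part of the gene was deleted is not given in the labels. Arrays of 1 genotype had a Pearson r of 0.983 to 0.994 with each other, and of 0.976 to 0.989 with those of the other genotype. Of all probe sets 343 (0.762%) passed the threshold, a Benjamini-Hochberg adjusted p under 0.05 in limma, 89 (0.198%) higher and 254 (0.564%) lower in KO livers. That number rests on single arrays, since 177 passed without KO 1, 38 without KO 3, 13 without KO 4, 161 without WT 1, 13 without WT 3 and 9 without WT 4. Xist, which is transcribed from the inactive X chromosome, read 8.59 in KO 1, 9.28 in KO 2 and 8.67 in WT 3, and at most 4.32 in the other livers, so the sexes are not balanced between the genotypes.

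None of the bile duct genes passed the threshold. Of the 11 probe sets 0 were called, higher or lower, in limma with Benjamini-Hochberg adjustment over all probe sets, where the background is 0.198% higher, 0.564% lower and 0.762% in either direction. At an unadjusted p under 0.05 there was 1, that of Cldn7, against a background of 11.7%. The KO and WT values did not overlap in 1 of the 11, again Cldn7, against 6.9% of all probe sets. In 10 of the 11 the KO mean was the higher one, against 54.1% of all probe sets, and the median difference was 0.11 on the log2 scale, against 0.016 over all. These probe sets share arrays and in part a gene, so they are not independent counts. Values of RMA understate differences of dim probe sets, and 6 of the 11 lay below the median of their array (3.68 to 3.73) in all 8 livers, 2 did so in 7 livers, and 3 lay above it in all 8.

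**Figure D1:**
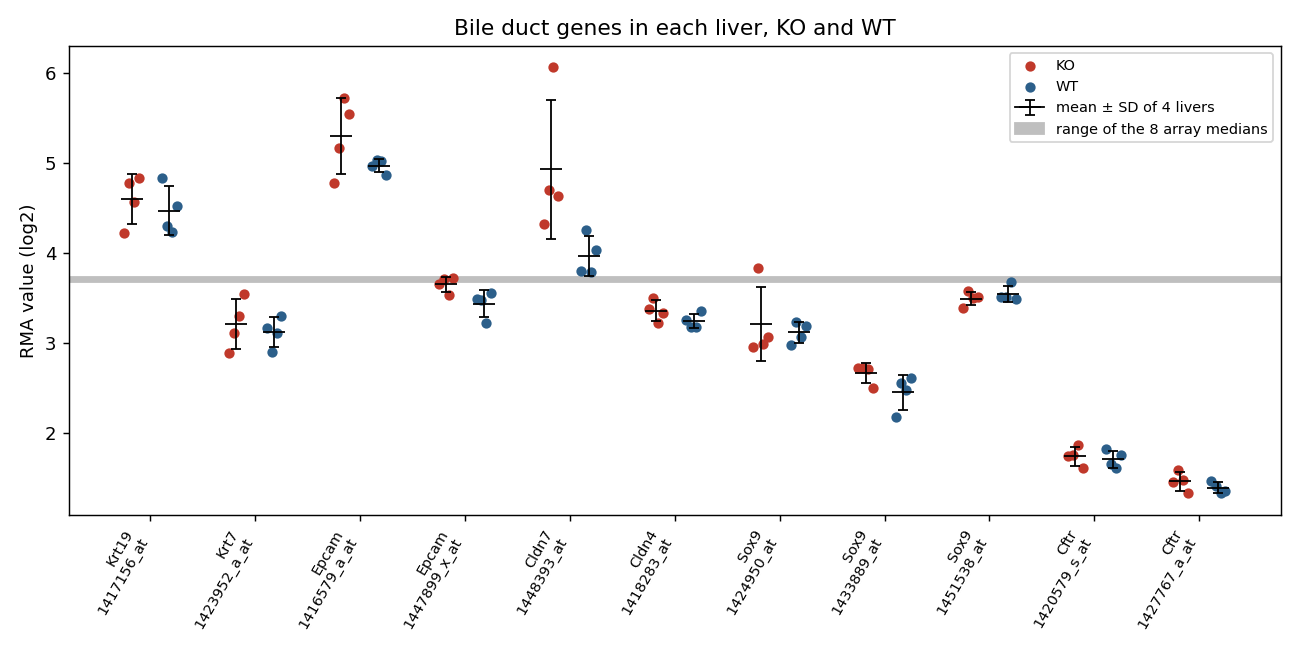
RMA values on a log2 axis of the 11 bile duct probe sets in each liver, KO in red on the left and WT in blue on the right of each pair, with the mean and the SD of 4 livers as black bars and the range of the 8 array medians as a grey band. Only for Cldn7 do all 4 KO points lie above all 4 WT points, and the KO 3 point at 6.06 stands far above the rest.

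Cldn7 and Epcam are shown by the bases before their starts. Cldn7 and the brighter of the 2 Epcam probe sets had the highest correlation of all pairs of the list. The other Epcam set did not share it, with an r of 0.369 with Cldn7. Claudin 7, a membrane protein of tight junctions and of the lateral cell surface, is known to bind EpCAM, the epithelial cell adhesion molecule. The windows are the 250 bases upstream of the gene start in RefSeq on build GRCm38.p6, both on the plus strand, chr11:69964529-69964778 for Cldn7 and chr17:87635729-87635978 for Epcam. Capitals mark matches to any of 5 short motifs searched on both strands.
Cldn7: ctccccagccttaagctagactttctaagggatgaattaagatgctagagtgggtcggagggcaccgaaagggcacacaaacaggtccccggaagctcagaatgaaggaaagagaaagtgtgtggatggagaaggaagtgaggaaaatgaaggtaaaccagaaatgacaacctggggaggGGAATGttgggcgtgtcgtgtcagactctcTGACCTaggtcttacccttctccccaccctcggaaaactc
Epcam: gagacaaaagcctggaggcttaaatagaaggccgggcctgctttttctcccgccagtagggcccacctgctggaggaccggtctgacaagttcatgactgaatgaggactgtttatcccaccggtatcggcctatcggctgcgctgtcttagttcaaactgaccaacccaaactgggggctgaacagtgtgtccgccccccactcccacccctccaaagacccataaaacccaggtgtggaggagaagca
Cldn7 holds GGAATG, the core motif of the TEAD factors, 70 bases before the start, as do 12.6% of all 32851 such windows, and TGACCT, 40 bases before the start. The second is the reverse complement of AGGTCA, the half-site to which the bile acid receptor FXR and many other nuclear receptors bind, and 14.0% of windows hold it on either strand. Epcam holds none of the 5. The other motifs were AACCNGTT of the grainyhead-like factors, GTGGGAA of RBPJ and GTTAAT, a half-site of HNF1 factors, held by 1.79%, 5.42% and 6.43% of windows. Sequence windows were found for 6 of the 8 genes, 8 windows in all. AGGTCA or its reverse complement was in 3 of them, but these belong to Cldn4 and Cldn7 only. Cldn7 counts at its gene start and again at a start 642 bases from it. GGAATG was in 1, of Cldn7, and GTTAAT in 1, of Spp1, which has windows but no probe set here. AACCNGTT and GTGGGAA were in 0. In the Cldn7 window shown the matches do not overlap.

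Keratins 19 and 7, the intermediate filament proteins by which duct cells are told from hepatocytes in sections, differed little between the genotypes. Krt19 read 4.22, 4.78, 4.57 and 4.84 in KO 1 to KO 4, against 4.83, 4.30, 4.23 and 4.52 in WT 1 to WT 4. The lowest of the 8 values was that of KO 1 and the highest that of KO 4, so the WT values lie within the KO range. The mean was 4.60 ± 0.28 in KO livers and 4.47 ± 0.27 in WT livers (SD, n = 4 each), a difference of 0.13 ± 0.17 (SE) with a 95% confidence interval of -0.25 to 0.51 and a limma adjusted p of 0.847. Krt7 read 2.89, 3.11, 3.30 and 3.54 in KO livers, against 3.17, 2.91, 3.11 and 3.30 in WT livers, below the array medians throughout. KO 1 was again the lowest and KO 4 the highest. Its difference was 0.089 ± 0.147 (SE), with an interval of -0.24 to 0.42 and a limma adjusted p of 0.886. The intervals leave room for a rise of up to 1.42-fold in Krt19 and 1.33-fold in Krt7, on the scale of RMA values.

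Cldn7 was the member with the largest difference. Its values were 4.33, 4.70, 6.06 and 4.63 in KO 1 to KO 4, against 3.80, 4.25, 3.79 and 4.03 in WT 1 to WT 4. The lowest KO value, that of KO 1, lies just above the highest WT value, that of WT 2, and the groups do not overlap. The mean was 4.93 ± 0.77 in KO livers and 3.97 ± 0.22 in WT livers (SD, n = 4 each), a difference of 0.96 ± 0.32 (SE), or 1.95-fold, with an interval of 0.24 to 1.68. It did not pass, with a limma adjusted p of 0.257. KO 3 decides its size, since the difference without that liver was 0.58, with an adjusted p of 0.187. The difference was 0.49 in replicates 1 and 2 alone and 1.44 in replicates 3 and 4 alone. In replicates 1 and 2 Xist was high in both KO livers and in neither WT liver. In replicates 3 and 4 it was high in WT 3 alone, so this split cannot be told apart from sex. With the mean of Y-linked genes as a covariate the Cldn7 difference was 1.08, with a limma adjusted p of 0.126. With the genotypes pooled, replicates 1 and 2 differed from replicates 3 and 4 at 170 of 45037 probe sets. Of the 11 bile duct sets 0 did, too few sets to show anything at so small a share. No label calls these replicate sets batches.

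Epcam, which marks duct cells and hepatic progenitors, has 2 probe sets. The brighter one, 1416579_a_at, read 4.78, 5.17, 5.72 and 5.54 in KO livers, against 4.97, 5.03, 5.02 and 4.87 in WT livers. KO 2, KO 3 and KO 4 lay above all WT values and KO 1 lay below all of them, so the KO values spread more widely, with an SD of 0.418 in KO livers and 0.071 in WT livers. The difference was 0.33 ± 0.18 (SE), with an interval of -0.08 to 0.73, up to 1.66-fold, and a limma adjusted p of 0.552. Replicates 1 and 2 alone gave -0.027 and replicates 3 and 4 alone 0.68, a split that cannot be told apart from sex here either. Without KO 1, KO 3 or KO 4 the difference was 0.503, 0.19 or 0.25. With the mean of Y-linked genes as a covariate it was 0.39, with a limma adjusted p of 0.390. The other, 1447899_x_at, whose suffix marks a set with probes that may bind other transcripts, read 3.65, 3.71, 3.54 and 3.72 in KO livers, against 3.49, 3.48, 3.22 and 3.56 in WT livers. KO 3 overlaps the WT range there, and KO 3 is the lowest KO liver in it but the highest in the brighter set. The difference was 0.22 ± 0.10 (SE) with a limma adjusted p of 0.444, and over 8 livers the probe sets of Epcam had a Pearson r of 0.228.

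**Figure D2:**
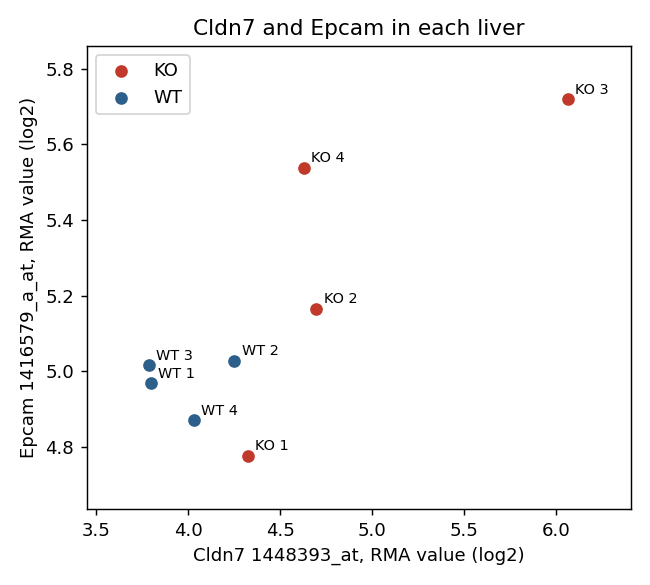
RMA values (log2) of Cldn7 on the horizontal axis and of the brighter Epcam probe set on the vertical axis, 1 point per liver, KO in red and WT in blue. KO 3 is highest on both axes at 6.06 and 5.72, and KO 1 has the lowest Epcam value, 4.78.

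Cldn4, a claudin of tight junctions in duct and other simple epithelia, was dim. It read 3.38, 3.50, 3.22 and 3.34 in KO livers, against 3.26, 3.18, 3.18 and 3.35 in WT livers, and these ranges overlap. The difference was 0.11 ± 0.09 (SE), with an interval of -0.095 to 0.32 and a limma adjusted p of 0.723. KO 3, the liver highest in Cldn7, was the lowest KO liver in Cldn4.

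Sox9, the transcription factor that is among the earliest markers of the embryonic ductal plate, has 3 probe sets, and they did not move together. On 1424950_at it read 2.96, 3.83, 2.99 and 3.07 in KO livers, against 2.98, 3.24, 3.07 and 3.19 in WT livers. KO 2 alone stands high, and the other KO livers lie in or below the WT range. That difference was 0.094 ± 0.184 (SE, limma adjusted p 0.907), and it was -0.11 without KO 2. On 1433889_at the values were 2.73, 2.73, 2.71 and 2.50 in KO livers, against 2.18, 2.55, 2.48 and 2.61 in WT livers, a difference of 0.21 ± 0.12 with a limma adjusted p of 0.542. On 1451538_at they were 3.39, 3.57, 3.50 and 3.51 in KO livers, against 3.51, 3.51, 3.68 and 3.49 in WT livers, a difference of -0.051 ± 0.088 with a limma adjusted p of 0.892. KO and WT values overlap in each of these sets, and the pairwise correlations between them over 8 livers lay at 0.363, 0.328 and -0.242. Sox9 was at or near the array medians at most, so its presence in these livers is not shown by this signal.

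Cftr, the chloride channel of the apical duct membrane that drives bicarbonate-rich secretion, had the lowest signals. The set 1420579_s_at ran from 1.61 to 1.87 in KO livers, against 1.61 to 1.82 in WT livers. The set 1427767_a_at ran from 1.33 to 1.59 in KO livers, against 1.34 to 1.47 in WT livers. Their differences were 0.036 ± 0.094 and 0.069 ± 0.089 (SE), with limma adjusted p of 0.936 and 0.845. The deposited table has 1.11 as its smallest value, so no level of Cftr is shown above background by these sets.

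**Figure D3:**
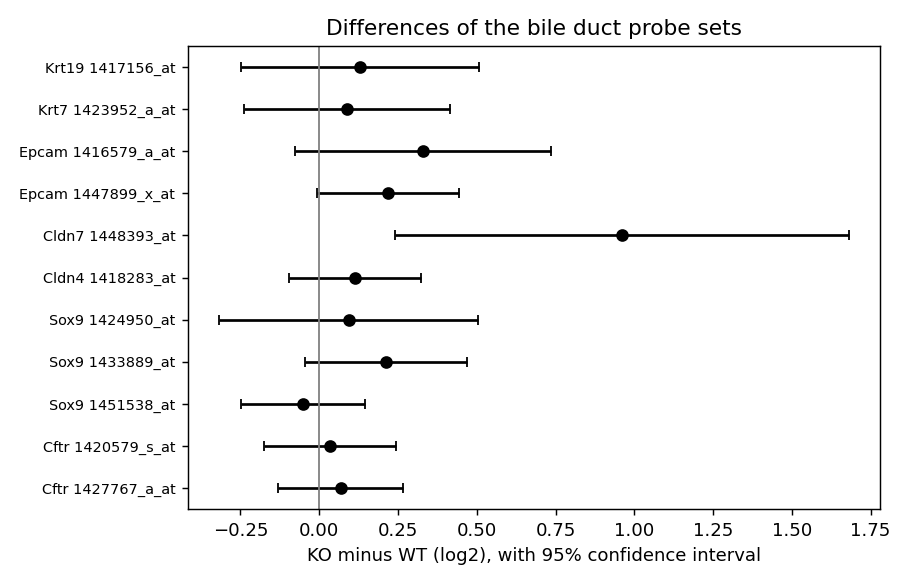
Difference of KO minus WT (log2) for each of the 11 bile duct probe sets, as points with 95% confidence intervals from limma. 10 of the 11 intervals hold 0, and that of Cldn7 runs from 0.24 to 1.68.

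Most pairs of bile duct probe sets were not closely correlated from liver to liver. Over the 55 pairs of probe sets the Pearson r across 8 livers had a median of 0.228 and ran from -0.620 to 0.819, the highest being that of Cldn7 with the brighter Epcam set. Within the 4 KO livers that pair had 0.774, and within the 4 WT livers 0.037. Cldn7 with the other Epcam set had 0.369 over 8 livers, -0.845 within the KO livers and 0.520 within the WT livers. These correlations describe 8 arrays that share a normalization, and the r of 0.819 holds the genotype difference and KO 3. Since 6 of the 11 sets lay below the array median in all 8 livers, low correlations cannot show that the genes vary apart. KO 2, KO 3 and KO 4 were each the highest liver in 3 of the 11 sets. KO 1 was the lowest in 5 and WT 3 in 4.

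Among 11381 named genes with means above the median, those closest to Cldn7 across the 8 livers were Gstm3, a glutathione S-transferase, with r of 0.985, Apbb3 with 0.982 and Tnfrsf12a, the receptor of the cytokine TWEAK, with 0.981. Closest to the brighter Epcam set were Mrpl38, a protein of the mitochondrial ribosome, with 0.964, Pcx, the pyruvate carboxylase, with 0.957 and Ccdc71 with 0.945. Closest to Krt19 were Bag6 with 0.978, Nlgn2 with 0.973 and Hlx with 0.970. For the dim members the closest were Tmbim4, Sec22a and Ly6e for Krt7, with 0.940 to 0.947, and Ly9, Aox3 and Frs3 for Cldn4, with 0.940 to 0.960. They were Ltbp3, Wfdc12 and Appbp2os for Sox9, with 0.887 to 0.913, and Fa2h, Zdhhc18 and Zfp574 for Cftr, with 0.897 to 0.929. None of these is a listed duct gene. They are the closest of many candidates over 8 arrays that share a normalization, and no test was made of them.

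A second list held 24 other genes known from bile duct cells, of which 20 were measured, each by its probe set with the highest mean. Here 0 rose and 1 fell, against 1.15% called among 18193 genes with 1 probe set each. Tspan8, a tetraspanin of epithelial membranes, read 5.95, 6.16, 5.96 and 5.94 in KO livers, against 6.73, 6.77, 7.13 and 7.07 in WT livers. It fell by 0.92 on the log2 scale (SE 0.12, limma adjusted p 0.0205), and all KO values lie below all WT values. The call was lost without KO 3, KO 4, WT 3 or WT 4, and the other 4 probe sets of Tspan8 had differences of -0.38 to -0.017 and did not pass. Another set of Cd24a, a surface protein of progenitor, duct and blood-forming cells, passed with a difference of -0.75 (limma adjusted p 0.0477), while the set that stands for the gene had -0.58 and an adjusted p of 0.0826, a gene named after its values were seen.

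The list was otherwise split, with 10 of 20 means higher in KO livers, against 53.3% of genes, and a median difference of 0.011, against 0.014 over the 18193 genes. At an unadjusted p under 0.05 there were 7, 5 higher and 2 lower, against 14.6% of genes, and the 5 higher ones are named after their values were seen. Clu, the chaperone clusterin, which hepatocytes also make, read 10.7, 10.9, 10.7 and 10.7 in KO livers, against 10.2, 10.6, 9.96 and 9.92 in WT livers, a difference of 0.58 ± 0.15 (SE) with a limma adjusted p of 0.142. Krt23, a keratin of stressed liver, read 6.81 to 7.10 in KO livers, against 5.08 to 6.98 in WT livers. The groups overlap, and the WT values are the wide ones, with WT 3 and WT 4 lowest (difference 0.90 ± 0.34, limma adjusted p 0.330). Tm4sf4, a membrane protein of liver epithelium, had a difference of 0.65 ± 0.19, Anxa4, an annexin of secretory epithelia, of 0.41 ± 0.13 and Bicc1, an RNA-binding protein whose loss gives cysts, of 0.33 ± 0.14, with limma adjusted p of 0.194, 0.216 and 0.379. KO 3 was the highest liver in these 3, as it was in Cldn7. It was also the highest in the list mean of the hepatocyte genes given below, at 11.5. Other probe sets of Bicc1 had differences of 0.19 (1436029_at) and 0.072 (1441137_at), with limma adjusted p of 0.658 and 0.930. On 1436029_at KO 2 was the highest liver.

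Keratins 8 and 18, which hepatocytes and duct cells share, did not pass either. Krt18 read 9.61, 9.77, 10.46 and 9.87 in KO livers, against 9.26, 9.12, 9.84 and 9.65 in WT livers, with KO 3 the highest. Its difference was 0.46 ± 0.21 (SE, limma adjusted p 0.440), and the median of the pair was 0.35. KO 3 was the highest liver in Krt8 as well, at 9.32.

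Genes of the signals that shape ducts in the embryo did not pass in the upward direction. Of 11 genes of the Notch pathway, through which portal Jagged 1 directs precursors to the duct fate, 0 passed, with a median difference of 0.0098. Notch3 had the lowest p, with 3.68 ± 0.085 in KO livers and 4.00 ± 0.12 in WT livers (SD, n = 4 each; limma adjusted p 0.196). Its other probe set went the other way, with 0.13 (limma adjusted p 0.849). At an unadjusted p under 0.05 there were 2 lower and 0 higher, against 14.6% of genes. Beside Notch3 this was Hes1, with -0.58 (limma adjusted p 0.255), named after its values were seen. Of 11 duct-forming and hepatoblast factors 0 passed, with a median of 0.055, and Hhex, a homeobox factor of early liver, had 8.16 ± 0.18 in KO livers and 7.74 ± 0.26 in WT livers (SD, n = 4 each; limma adjusted p 0.260). Of 7 measured targets of YAP, the growth regulator that works through TEAD factors, 1 fell and 0 rose, against 1.15% called among all genes, with a median of 0.073. The 1 was Birc5, which is foremost a gene of dividing cells, lower by -0.86 ± 0.15 (SE, limma adjusted p 0.0439), a call kept among the single omissions only without KO 2 or WT 2. The classical targets Ccn1 and Ccn2 had 0.073 and 0.11, and were named after their values were seen.

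Bulk RNA cannot tell fewer cells of a type from less RNA per cell, so the markers of other cells in newborn liver are given beside these values. Of 9 measured erythroid genes 8 had lower means in KO livers, where 53.3% of all genes had higher ones. All 8 had an unadjusted limma p under 0.05, against 14.6% of genes. The list had a median of -0.80 and list means of 7.53 to 8.15 in KO livers, against 8.43 to 8.62 in WT livers. The other gene was Hba-a1, named after its values were seen. Its set had a mean of 2.02 and lay below the array medians in every liver. Rhag, a protein of the red cell membrane, fell by 0.799 (SE 0.147, limma adjusted p 0.0480), the 1 of the 9 that passed, against 1.15% of genes. Among the single omissions Rhag passed only without KO 1. A list of 9 hepatocyte genes had a median of 0.10 and list means of 11.3 to 11.5 in KO livers, against 11.2 to 11.4 in WT livers, with 0 called, and 5 genes of the fetal hepatocyte had a median of 0.017 with 0 called. The part of this shift in cell markers in the values of the duct genes was not tested.

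Among other cells that border or could accompany ducts, 0 of 14 genes of stellate cells and portal fibroblasts passed, with a median of -0.15 and list means of 5.88 to 6.69 in KO livers, against 6.35 to 6.38 in WT livers. KO 3 held the lowest of these means and KO 2 the highest. 0 of 10 genes of Kupffer cells and macrophages passed, with a median of 0.024, and 0 of 6 endothelial genes, with a median of -0.077. The lowest p of these lists belonged to Timp1 at 0.304, Gpnmb at 0.33 and Lyve1 at 0.61, with limma adjusted p of 0.432, 0.311 and 0.483. Of 5 mesothelial genes 0 passed (median -0.018, Wt1 at -0.18 with a limma adjusted p of 0.602).

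Tissues with the same duct markers were checked too, since pancreas and gut also express Krt19, Krt7, Epcam and Cftr. Of 6 pancreatic genes 0 passed, with list means of 3.67 to 4.20 in KO livers, against 3.74 to 4.29 in WT livers, and Cpa1, a pancreatic carboxypeptidase with the lowest p, had 2.98 ± 0.15 in KO livers and 2.76 ± 0.12 in WT livers (SD, n = 4 each; limma adjusted p 0.481). Of 8 genes of intestine and stomach 1 rose, against 1.15% called among all genes. Fabp2, a fatty acid binding protein, read 8.53, 8.35, 7.95 and 8.69 in KO livers, against 7.21, 7.18, 7.14 and 7.44 in WT livers, a rise of 1.14 ± 0.15 (SE, limma adjusted p 0.0255) that was lost without KO 4, WT 3 or WT 4. The intestinal regulator Cdx2 lay between 3.24 and 3.58 in KO livers, against 3.10 and 3.51 in WT livers, and Vil1, villin of the brush border, between 2.00 and 2.76 in KO livers, against 2.09 and 2.53 in WT livers, all below the array medians. At an unadjusted p under 0.05 there were 2 higher and 0 lower, against 14.6% of genes. These were Fabp2 and Lgals4, the latter with a difference of 0.55 (limma adjusted p 0.292). Tff3 went the other way, with -0.64 (limma adjusted p 0.499). Cdx2, Vil1, Lgals4 and Tff3 were named after their values were seen. The list's median was 0.072 and that of the pancreatic list 0.071.

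**Figure D4:**
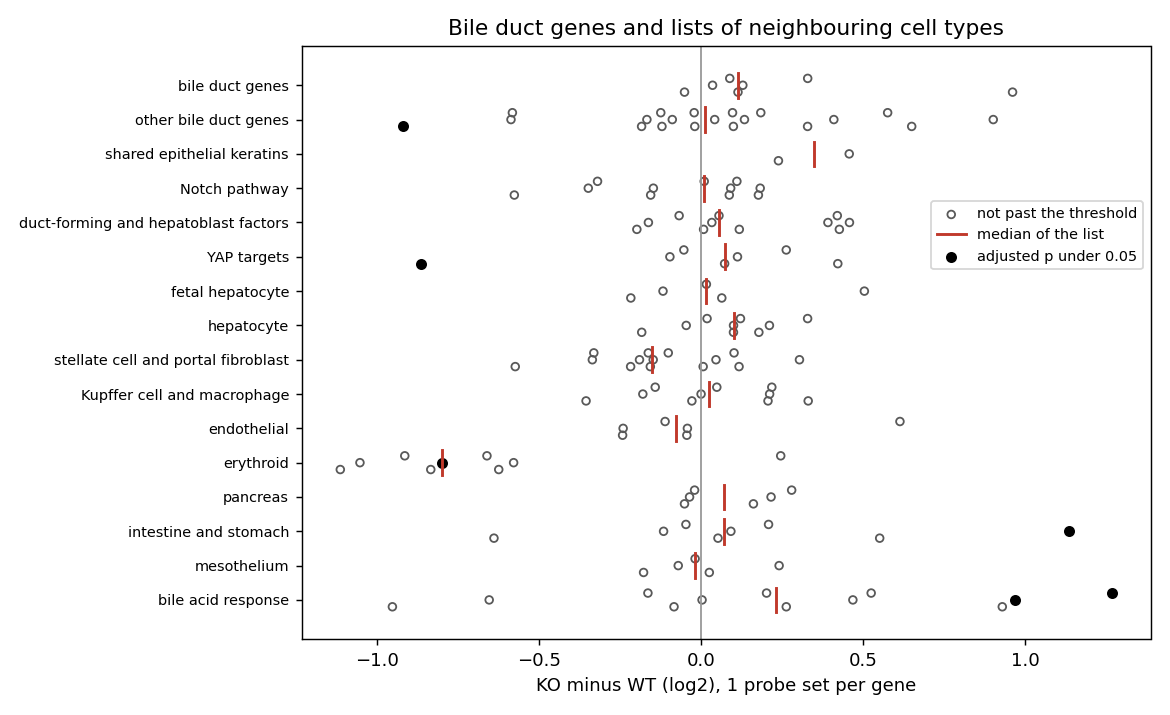
Difference of KO minus WT (log2) of each measured gene, 1 probe set per gene, in the bile duct list and 15 lists of related cells and pathways. Open circles did not pass the threshold, filled circles did, and red bars are list medians, of which the erythroid one at -0.80 lies farthest from 0.

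Genes of bile acid response and transport were counted beside the duct genes. Of 12 measured genes 2 rose and 0 fell, against 1.15% called among all genes, with a median of 0.23. Of the means 8 were higher and 4 lower in KO livers, against 53.3% higher among all genes. At an unadjusted p under 0.05 there were 5 higher and 2 lower, against 14.6% of genes in either direction. Slc51b, which with Slc51a forms a bile acid carrier of the basolateral membrane, read 6.10, 5.92, 5.65 and 5.85 in KO livers, against 4.72, 4.60, 4.53 and 4.60 in WT livers, with no overlap, and rose by 1.27 ± 0.11 (SE, limma adjusted p 0.00405). Abcb11, the canalicular bile salt export pump, rose by 0.97 ± 0.17 (limma adjusted p 0.0441), a call that was kept among the single omissions only without WT 2. The other higher ones, named after their values were seen, did not pass. They were Nr0b2, whose groups do not overlap, with 0.93 (limma adjusted p 0.0864), Abcc3 with 0.53 (0.258) and Abcb4 with 0.47 (0.234). The 2 lower ones, named after their values were seen, were Cyp7a1, which starts the conversion of cholesterol to bile acids, with -0.65 (limma adjusted p 0.189), and Cyp8b1, the sterol 12-hydroxylase, with -0.95 (limma adjusted p 0.386). Slc51a, the partner of Slc51b, had -0.083 (limma adjusted p 0.883), and was also named after its values were seen. Beside these the 95% intervals of the bile duct probe sets other than Cldn7 reached at most 0.73 on the log2 scale. That of Cldn7 reached 1.68, with a difference of 0.96. RMA values understate differences of dim sets, and 6 of the 11 lay below the array median in all 8 livers. A difference between genes in their response was not tested.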

How the data were processed

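Liver RNA of 8 mice, 4 KO and 4 WT, was measured with 1 Affymetrix array each. The deposited log2 values were made by the authors with RMA, per the submitters' processing notes, whose version is not given there. That they are log2 was inferred from their range, 1.11 to 13.7. RMA gives all arrays a shared probe distribution, so a change in total RNA is not seen. Arrays give no depth; their number limits the precision. Where nothing says that replicates are separate litters, p-values measure the spread between these samples.

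The 64 array controls were left out. Of 45037 probe sets 34945 have 1 gene symbol, 932 several and 9160 none. KO was compared with WT in limma 3.58.1 (R 4.3.3; lmFit, eBayes, two-sided, no covariate), adjusted over all probe sets, threshold 0.05, after a test on simulated data. Genes named outside the members were, per list, those past the threshold (at most 4) or the 1 with the lowest p, and the 3 genes most correlated with each member; others are said to be chosen after their values were seen. A gene stands by its probe set with the highest mean. Members and lists were chosen with earlier results of these data known. Same-numbered arrays had correlated deviations of -0.0039, 0.069, 0.174 and 0.259, so the numbers were not taken as pairs. Alternatives are given in the closing section.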

Additional observations from a re-analysis of the deposited data

Results flagged for a closer look

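Values far from the rest of their group of 4 livers were sought in 28 probe sets, 56 groups in all. There were 6, and chance alone gives about 5% of groups. 3 of them were in Sox9. Its set 1424950_at read 3.83 in KO 2 and 2.96 to 3.07 in the other KO livers, 1433889_at read 2.50 in KO 4 and 2.71 to 2.73 in the others, and 1451538_at read 3.68 in WT 3 and 3.49 to 3.51 in the other WT livers. A different liver stood apart in each Sox9 set, and these signals lie near or below the array medians. Tspan8 read 6.16 in KO 2 and 5.94 to 5.96 in the other KO livers. Birc5 read 8.76 in WT 2 and 9.30 to 9.35 in the other WT livers. Timp1 read 3.75 in KO 1 and 4.11 to 4.14 in the other KO livers.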

How the results depend on the processing

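The 11 bile duct probe sets were refitted under 208 combinations of probe set and setting. 0 passed, with a lowest limma adjusted p of 0.0795, that of Epcam 1416579_a_at within replicates 3 and 4. The count of bile duct sets past the threshold was 0 in each setting, leaving out 1 array included (lowest 0, highest 0). The filter on low values kept 3 of the 11 sets. The sign turned in 8 refits. Within replicates 1 and 2 the difference was -0.065 in Krt19, -0.038 in Krt7 and -0.027 in Epcam 1416579_a_at, and within replicates 3 and 4 it was -0.097 in Sox9 1424950_at. With the mean of all its probe sets Sox9 had 0.085, where 1451538_at had -0.051. Without 1 array, Krt7 lay between -0.022 and 0.19, Sox9 1424950_at between -0.11 and 0.18 and Cftr 1420579_s_at between -0.0044 and 0.081. In replicates 1 and 2 genotype and sex cannot be told apart, since only the KO livers had high Xist there. The cause of the turned signs was not tested.

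The count of all probe sets past the threshold, 343 with all arrays, was 914 with array weights, 527 with the mean of Y-linked genes as a covariate (Eif2s3y, Kdm5d and Uty, since Ddx3y was not found by symbol), 15 with the replicate block and 4 within replicates 1 and 2, where fewer arrays were used. Without 1 array it ran from 9 to 489, and in the other settings it stayed within 1.5 times. With the replicate block the differences of the bile duct sets are the same as without it, 0 passed, and Cldn7 had a limma adjusted p of 0.244. The block ended the calls of Tspan8, Birc5, Rhag, Fabp2 and Abcb11, with limma adjusted p of 0.0588, 0.0985, 0.0648, 0.0524 and 0.0539, and Slc51b kept its call at 0.0330. KO 4 deviated most like WT 4 (r 0.259) and KO 3 about equally like WT 3 and WT 4 (0.174 and 0.176). KO 1 deviated most like WT 2 (0.186) and KO 2 most like WT 1 (0.225), so not every array was closest to its own number. Each KO array was closest to a WT array of its own replicate set, 1 and 2 or 3 and 4. Its r with WT arrays of the other set ran from -0.238 to -0.034. With these sets as a block 514 of all probe sets passed, and 0 of the bile duct sets. Of the genes called in other lists, Slc51b passed in 18 of 19 alternatives, Tspan8 and Fabp2 in 13, Birc5 in 10, Rhag and Abcb11 in 8. Arrays limit what can be said of dim sets, since no detection call is used here.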
